A study of Mus musculus with 6 samples.

Results

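The monocyte CC chemokines Ccl2, Ccl3, Ccl4, Ccl5, Ccl7, Ccl8 and Ccl12 and the receptors Ccr1 and Ccr2 were followed through the colons of mice with dextran sulfate sodium (DSS) colitis, with and without the gut bacterium *B. vulgatus*. These genes were taken by symbol from the deposited table, where 9 of the 18477 genes carried these names, and all 9 passed the filter on low counts. Male C57BL/6 mice aged 6 to 8 weeks drank 2% DSS, which damages the lining of the colon, from day 8 to day 14. During the 14 days, mice were gavaged daily with PBS (DSS group, n = 3 libraries) or with *B. vulgatus* (DSS+BV group, n = 3 libraries). The sources used here do not state whether each library holds the colon RNA of 1 mouse. All 6 libraries therefore came from mice that had received DSS, and mice without DSS were not analysed here. Each value below is from whole colon tissue with all of its cell types.

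CC chemokines are small secreted proteins that draw leukocytes along a gradient by binding G protein-coupled receptors on their surface. CCR2, bound by CCL2, CCL7 and CCL12, lets monocytes leave the bone marrow and enter tissue, and in the colon these monocytes replenish the resident macrophages and enter in larger numbers during colitis. CCR1 is carried by monocytes and neutrophils and is bound by CCL3, CCL5 and CCL7, whereas mouse CCL8 acts mainly through CCR8.

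Library totals lay between 15293276 and 17254343 expected counts. Of the 14579 genes tested with edgeR's quasi-likelihood test, 13 were called lower and 0 higher after *B. vulgatus* (called: adjusted p-value under 0.05 with an absolute log2 fold change above 1), and DESeq2 called 282 lower and 41 higher. At an unadjusted p-value under 0.05, edgeR gave 1329 lower and 496 higher genes. Colon epithelium was present in every library, with summed CPM (counts scaled to a common TMM-adjusted library size) of its 12 markers of 10907, 19684 and 14225 in the DSS libraries and 19240, 32123 and 39359 in the DSS+BV libraries. DSS 3 gave the highest value of all 6 libraries for 7 of the 9 genes, and DSS+BV 1 the highest of its own group for 6 of them.

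None of the 9 genes was called by edgeR, against a background of 0.0892% of tested genes called lower and 0% higher. Yet 7 of 9 had a log2 fold change below 0 (51.5% of tested genes), with a median of −1.16 beside −0.01 over all tested genes. In 5 of them, Ccl2, Ccl3, Ccl4, Ccl7 and Ccl8, every DSS+BV library lay below every DSS library, as did 11.3% of tested genes, and in 0 of the 9 did every DSS+BV library lie above (6.37% of tested genes). An unadjusted p-value under 0.05 with a lower level was reached by Ccl2, Ccl3, Ccl4, Ccl8 and Ccr1, against 9.12% of tested genes, and by 0 with a higher level (3.4%). That count of 5 was 2 when DSS 3 was left out and 3 when DSS+BV 2 or DSS+BV 3 was. Ccl5 and Ccl12 had similar group means and overlapping libraries. In bulk tissue, fewer cells of a type and less RNA per cell cannot be told apart.

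**Figure D1:**
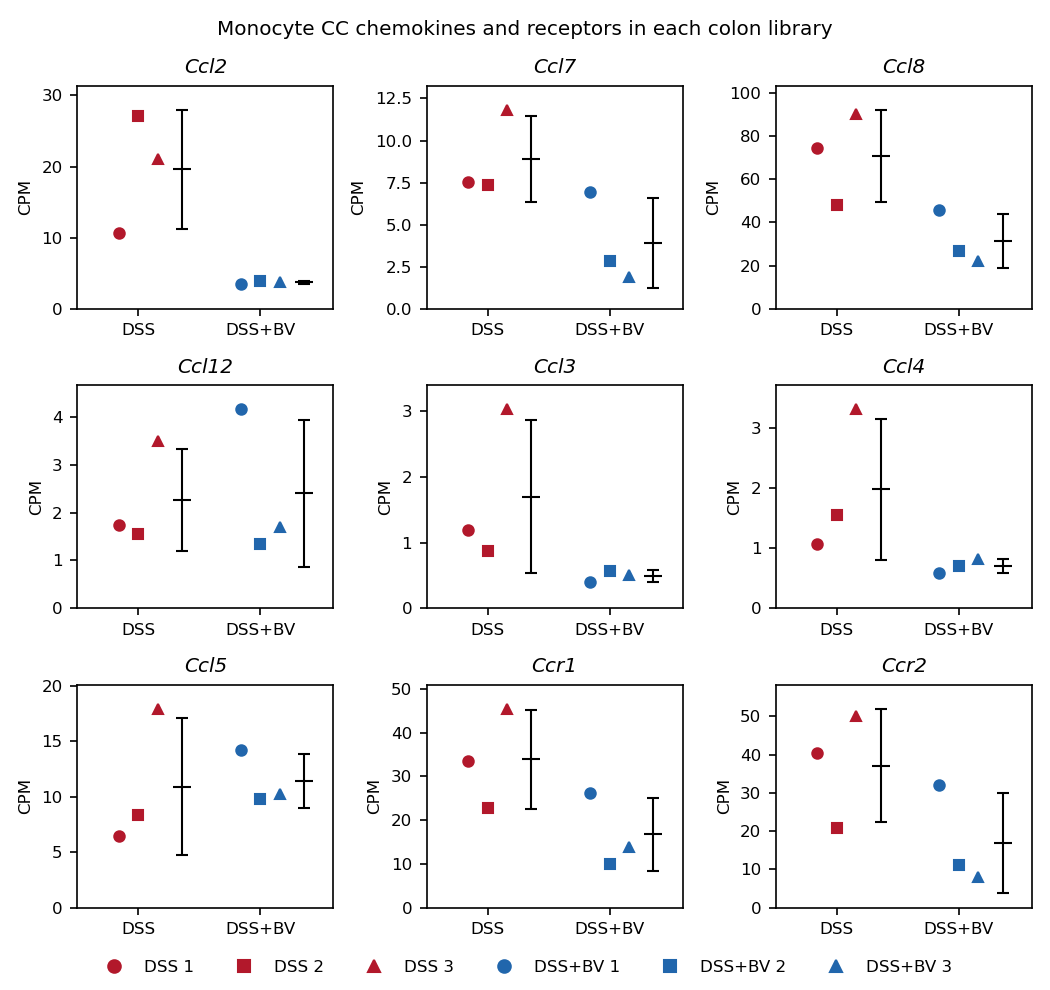
CPM of each of the 9 genes in the 3 DSS and 3 DSS+BV libraries, 1 panel a gene, each with its own linear axis from 0. Points are libraries, with the group mean and SD beside them. The DSS+BV points of Ccl2 sit between 3.50 and 3.95, below all DSS points, while those of Ccl5 and Ccl12 lie within or around the DSS range.

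Ccl2 encodes the main CCR2 ligand and is made by macrophages, fibroblasts and endothelium. Its gene lies on the plus strand at chr11:82035577-82037452 (GRCm38.p6, RefSeq annotation), the first in a row with Ccl7, Ccl12 and Ccl8. Ccl2 measured 10.6, 27.2 and 21.02 CPM in DSS 1, 2 and 3, and 3.50, 3.95 and 3.73 CPM in DSS+BV 1, 2 and 3. The groups did not overlap, and the DSS+BV libraries were far closer to each other than the DSS libraries were. The means were 19.6 ± 8.38 and 3.73 ± 0.227 CPM (SD, n = 3 each), a 5.25-fold lower level in the fit. The log2 fold change was −2.39 (SE 0.37), and edgeR gave an adjusted p-value of 0.123 (unadjusted 0.000404, rank 47 of the tested genes). DESeq2 gave −2.39 with an adjusted p-value of 1.12e-06 and called Ccl2, the one gene of the 9 that it called, beside 1.93% of tested genes that it called lower and 0.281% that it called higher. limma-voom gave an adjusted p-value of 0.232. Without any 1 library, the log2 fold change of Ccl2 lay between −2.69 and −2.08, with edgeR adjusted p-values from 0.0630 to 0.664. The count behind each value was 177, 437 and 361 in the DSS group and 53, 62 and 59 in the DSS+BV group.

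Ccl7, Ccl12 and Ccl8 follow Ccl2 on the same strand, with the eosinophil attractant Ccl11 between Ccl7 and Ccl12. Promoter entries of RefSeq (GRCm38.p6) were matched for 5 of the 9 genes, Ccl8, Ccl12, Ccl3, Ccr1 and Ccr2. The 250 bases before the start of Ccl8 (chr11:82114935-82115184, plus strand) and of its neighbour Ccl12 (chr11:82101595-82101844, plus strand) are shown because these adjacent genes differed in their values, and those of Ccl3 (chr11:83649379-83649628, minus strand) because it lies in the other gene row of the chromosome. Capitals mark a TATA box match in Ccl8 and Ccl12 and an interferon response match in Ccl3.
Ccl8: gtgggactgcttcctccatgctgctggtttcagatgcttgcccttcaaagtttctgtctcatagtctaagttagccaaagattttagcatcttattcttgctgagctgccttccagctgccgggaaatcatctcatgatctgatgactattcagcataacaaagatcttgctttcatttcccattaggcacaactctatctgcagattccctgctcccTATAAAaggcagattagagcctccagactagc
Ccl12: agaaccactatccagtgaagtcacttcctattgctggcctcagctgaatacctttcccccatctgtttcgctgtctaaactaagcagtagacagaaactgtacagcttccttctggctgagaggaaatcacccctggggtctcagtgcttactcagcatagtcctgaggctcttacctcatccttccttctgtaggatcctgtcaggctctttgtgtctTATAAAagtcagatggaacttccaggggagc
Ccl3: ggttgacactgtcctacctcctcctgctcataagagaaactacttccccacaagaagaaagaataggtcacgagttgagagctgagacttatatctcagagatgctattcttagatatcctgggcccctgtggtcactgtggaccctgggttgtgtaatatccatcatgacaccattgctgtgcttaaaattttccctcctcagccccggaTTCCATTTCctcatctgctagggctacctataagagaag
TATAAA, searched on both strands, began 32 bases before the start of Ccl8 and 31 before that of Ccl12, and 12.4% of 32851 promoter windows of this length hold it. Over their whole windows, Ccl8 and Ccl12 were identical at 54.5% of positions, beside 50.6% for Ccl8 and Ccl3. GAAANNGAA, an interferon response motif, matched in Ccl3 and in the Ccr2 window, and 7.13% of windows hold it. The Ccr2 window (chr9:124101933-124102182) lies inside the RefSeq span of the gene, not before it. GGANTTTCC for NF-kB (1.07% of windows), TGANTCA for AP-1 (6.75%) and TTCNNNGAA for STAT (7.02%) had no match in the 5 windows. A match describes letters and is not a measured site.

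Ccl8 was the most abundant of the 7 ligands in every library. It measured 74.4, 47.8 and 90.0 CPM in the DSS libraries and 45.8, 26.9 and 22.1 CPM in the DSS+BV libraries. The highest DSS+BV library, DSS+BV 1, lay just under the lowest DSS library, DSS 2. The means were 70.7 ± 21.3 and 31.6 ± 12.5 CPM (SD, n = 3 each), with a log2 fold change of −1.16 (SE 0.34) and an edgeR adjusted p-value of 0.321 (unadjusted 0.0123). DESeq2 gave an adjusted p-value of 0.0614, and the other alternatives reached 0.903, without DSS+BV 2.

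Ccl12, a CCR2 ligand of the mouse, measured 1.74, 1.55 and 3.49 CPM in the DSS libraries and 4.16, 1.34 and 1.71 CPM in the DSS+BV libraries. DSS+BV 1 was the highest of all libraries and DSS+BV 2 the lowest, so the DSS+BV group spanned the DSS group. The log2 fold change was 0.08 (SE 0.55, edgeR adjusted p-value 0.964). Its sign turned with limma-voom (−0.0081) and when DSS 1, DSS 2 or DSS+BV 1 was left out, reaching −0.56 without DSS+BV 1.

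Ccl7, which binds both CCR1 and CCR2, measured 7.54, 7.34 and 11.8 CPM in the DSS libraries and 6.93, 2.87 and 1.90 CPM in the DSS+BV libraries. DSS+BV 1 lay close to the lowest DSS libraries, and the other DSS+BV libraries well under them. The means were 8.90 ± 2.53 and 3.90 ± 2.67 CPM (SD, n = 3 each), with a log2 fold change of −1.19 (SE 0.51) and an edgeR adjusted p-value of 0.402. Without DSS+BV 1 the log2 fold change was −1.89.

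**Figure D2:**
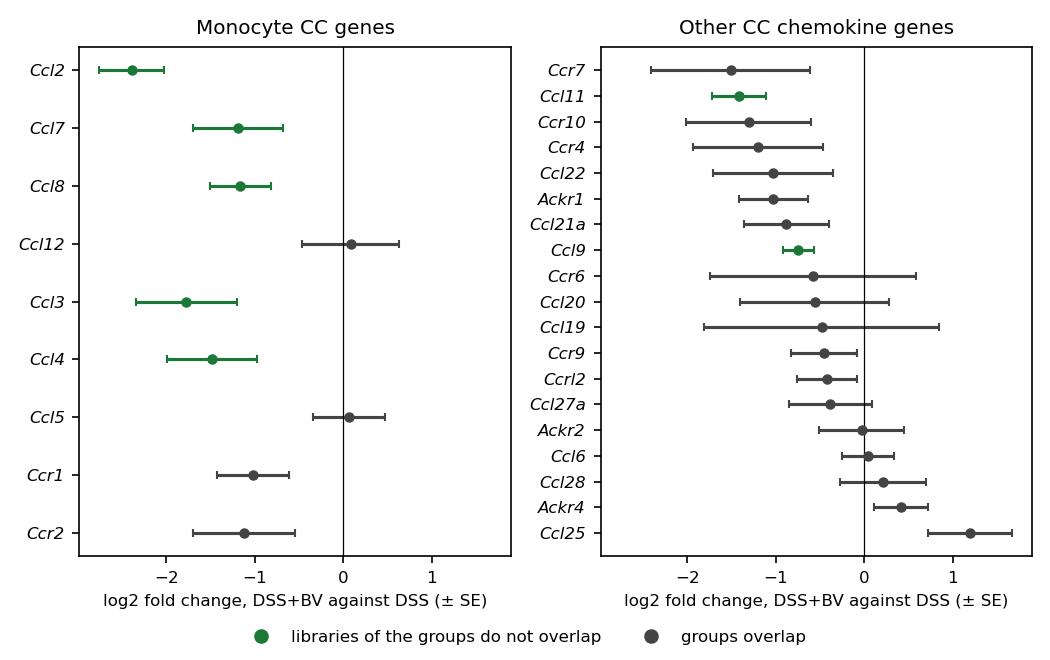
Log2 fold change of DSS+BV against DSS from edgeR for each of the 9 genes and for other tested genes of the CC chemokine system, with standard errors as bars and green for genes whose groups do not overlap. Ccl2 stands furthest to the left at −2.39, and Ccl5 and Ccl12 sit near 0, where leaving out single libraries turns their sign.

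The second row of genes on chromosome 11 holds Ccl5 (chr11:83525778-83530518, minus strand), Ccl9, Ccl6, Ccl3 (chr11:83647843-83649378, minus strand) and Ccl4 (plus strand). Ccl3 and Ccl4 encode the macrophage inflammatory proteins alpha and beta, made by activated macrophages and lymphocytes. Both had low counts, and single libraries weigh heavily on their values. Ccl3 measured 1.198, 0.870 and 3.03 CPM in the DSS libraries and 0.396, 0.573 and 0.506 CPM in the DSS+BV libraries, from counts of 20, 14 and 52 and of 6, 9 and 8. Ccl4 measured 1.08, 1.55 and 3.32 CPM in the DSS libraries and 0.594, 0.701 and 0.822 CPM in the DSS+BV libraries, from counts of 18, 25 and 57 and of 9, 11 and 13. Neither gene's groups overlapped, and DSS 3 was far above the other DSS libraries in both. The log2 fold change of Ccl3 was −1.77 (SE 0.57), with an edgeR adjusted p-value of 0.340. That of Ccl4 was −1.48 (SE 0.51), with an edgeR adjusted p-value of 0.356. Without DSS 3 they were −1.06 and −0.89. In the RefSeq annotation the gene models of Ccl3 and Ccl4 overlap on opposite strands, Ccl5 overlaps the long non-coding RNA Gm32650, and in GENCODE M21 Ccl2 overlaps Gm17268 on the other strand. These are overlaps of whole gene spans, and in GENCODE M21 Ccl4 starts at 83662584, past the end of Ccl3 at 83649355. The strand setting of the counting is not given in the sources used here, so whether such pairs shared reads was not settled. No count of the 9 genes was other than whole.

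Ccl5, made largely by T cells and natural killer cells, measured 6.47, 8.33 and 17.9 CPM in the DSS libraries and 14.2, 9.81 and 10.2 CPM in the DSS+BV libraries. DSS 3 was the highest of all, and every DSS+BV library lay above the other DSS libraries. The means were 10.9 ± 6.15 and 11.4 ± 2.45 CPM (SD, n = 3 each), with a log2 fold change of 0.07 (SE 0.41, edgeR adjusted p-value 0.960). The sign turned when DSS 1, DSS 2 or DSS+BV 1 was left out (lowest −0.20), and the value was 0.63 without DSS 3. As a share of the summed CPM of the 7 ligands, Ccl5 made up 6.28%, 8.80% and 11.9% in the DSS libraries and 18.8%, 21.3% and 25.0% in the DSS+BV libraries. The summed CPM of the T and NK cell markers ranged from 56.0 to 118 in the DSS group and from 60.7 to 102 in the DSS+BV group, with 8 of 12 tested markers below 0 and a median log2 fold change of −0.17, which turned to 0.27 without DSS 3. Cd4, the most abundant of them, had 20.2 ± 7.20 and 20.3 ± 12.8 CPM (SD, n = 3). Their part in the Ccl5 values was not tested.

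The sum of the 7 ligands was 103, 94.6 and 151 CPM in the DSS libraries and 75.6, 46.1 and 41.0 CPM in the DSS+BV libraries. Ccl8 made up between 50.5% and 72.2% of it in every library. Ccl2 made up 10.3%, 28.7% and 13.96% in the DSS libraries and 4.62%, 8.56% and 9.10% in the DSS+BV libraries, so that the CPM ratio of Ccl2 to Ccl5 was 1.64, 3.26 and 1.17 in the former and 0.245, 0.403 and 0.364 in the latter. This ratio was chosen after the values were seen and was not tested.

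Levels can be ordered between genes per kilobase of transcript. The length used was that of the longest transcript matched to RefSeq. For Ccr2 this was 2999 bases, whereas all its coding-transcript exons together cover 6760 bases, so the place of Ccr2 depends on this choice. In the DSS group Ccl8 came first at 138 ± 41.7 CPM per kb (SD, n = 3), above every library of the other genes. By their means, Ccl2 (24.1 ± 10.3), Ccl5 (20.5 ± 11.6), Ccr2 (12.4 ± 4.95), Ccr1 (11.97 ± 3.99) and Ccl7 (11.1 ± 3.16) followed, but their libraries overlapped: in DSS 1 Ccr2 (13.5) exceeded Ccl2 (13.04), and in DSS 3 Ccl5 (33.7) did (Ccl2 25.9). Ccl12, Ccl4 and Ccl3 came last. In the DSS+BV group Ccl8 (61.8 ± 24.5) and Ccl5 (21.5 ± 4.60) stood apart from the rest, while Ccl2 (4.58 ± 0.279) had the sixth mean, where its mean with DSS alone was the second. There its libraries lay within the ranges of Ccr1 (5.91 ± 2.97), Ccr2 (5.67 ± 4.36), Ccl7 (4.86 ± 3.33) and Ccl12 (4.47 ± 2.85). Ccl4 (1.07 ± 0.173) and Ccl3 (0.642 ± 0.117) were the lowest.

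**Figure D3:**
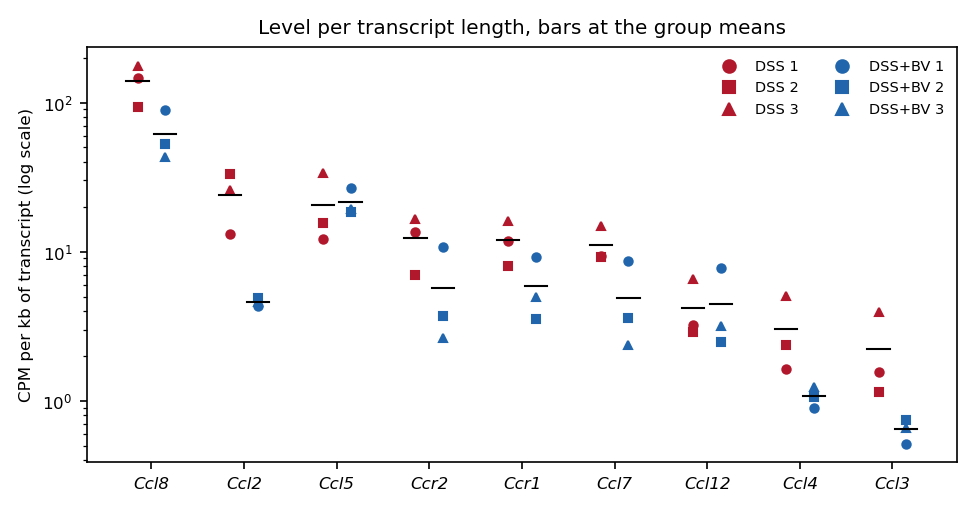
CPM per kilobase of transcript of the 9 genes on a log axis, where points are libraries and bars are group means. Ccl8 is highest in both groups, and Ccl2 has the second mean with DSS alone (24.1) and the sixth with *B. vulgatus* (4.58), with libraries that overlap those of its neighbours.

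The receptors lie close together on chromosome 9, Ccr1 at chr9:123962126-123968692 on the minus strand and Ccr2 at chr9:124101918-124109140 on the plus strand, with Ccr3 between them. Ccr1 measured 33.5, 22.8 and 45.4 CPM in the DSS libraries and 26.2, 10.1 and 13.97 CPM in the DSS+BV libraries. Ccr2 measured 40.4, 20.9 and 50.02 CPM in the DSS libraries and 32.0, 11.1 and 7.90 CPM in the DSS+BV libraries. In both, DSS+BV 1 exceeded DSS 2, so the groups overlapped. The log2 fold change of Ccr1 was −1.02 (SE 0.41), with an edgeR adjusted p-value of 0.392. That of Ccr2 was −1.13 (SE 0.58), with an edgeR adjusted p-value of 0.472, and it was −1.95 without DSS+BV 1.

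In neither of the receptor ratios tested were the groups apart. The CPM ratio of Ccr1 to Ccr2 was 0.830, 1.09 and 0.908 in the DSS libraries and 0.819, 0.903 and 1.77 in the DSS+BV libraries, a mean log2 difference of 0.22 (exact two-sided permutation test, p = 0.9) that was −0.12 without DSS+BV 3. The ratio of the ligand Ccl2 to its receptor Ccr2 was 0.262, 1.30 and 0.420 in the DSS libraries and 0.109, 0.354 and 0.472 in the DSS+BV libraries, a mean log2 difference of −0.99 (exact permutation p = 0.5) that was −0.33 without DSS 2. Both adjusted p-values over these 2 ratios were 0.9, and 3 against 3 libraries cannot give an exact p-value under 0.1. DSS 2 had the highest Ccl2 of all libraries with the lowest Ccr2 of its group.

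Macrophages and monocytes, which carry CCR2 and CCR1 and make several of the ligands, were followed by 21 markers. Of these, 20 had a log2 fold change below 0 (median −0.87) and 0 were called. The smallest p-values were those of Chil3, Cd163, F13a1 and Mrc1, with log2 fold changes of −4.05, −1.98, −1.36 and −1.33 and edgeR adjusted p-values from 0.113 to 0.300. Their summed CPM was 3614, 1846 and 4608 in the DSS libraries and 3088, 1947 and 1627 in the DSS+BV libraries, and the groups overlapped. Plac8, the most abundant marker, had means of 1495 ± 757 CPM with DSS alone and 1133 ± 252 CPM with *B. vulgatus* (SD, n = 3). This 1 gene made up 48.6%, 34.8% and 45.3% of the sum in the DSS libraries. In the DSS+BV libraries its share was 44.9%, 58.1% and 54.2%, so the sum leans heavily on it. Which cells of these colons made the Plac8 RNA was not tested, so a ratio to this sum is not a ratio to macrophages and monocytes alone.

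Relative to this marker sum, Ccl2 was 0.293%, 1.47% and 0.456% in the DSS libraries and 0.113%, 0.203% and 0.229% in the DSS+BV libraries, and every DSS+BV library again lay below every DSS library. The same held for Ccl8, Ccl3, Ccr1 and Ccr2, beside 2.41% of tested genes, whereas Ccl5 lay above in every DSS+BV library (1.98% of tested genes). With Plac8 left out of the sum, an alternative chosen after seeing the data, only Ccl2 and Ccl8 of the 9 lay below (1.38% of tested genes), and Ccl5 and Ccl12 lay above (4.96%). The mean log2 difference of this ratio was −1.74 for Ccl2 (−1.48 without Plac8), −0.64 for Ccl8 (−0.37) and 0.74 for Ccl5 (1.005). Without DSS 2, that of Ccl2 to the sum with Plac8 was −1.07, and without DSS 1 that of Ccl5 was 0.33. These ratios are descriptions and were not tested.

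**Figure D4:**
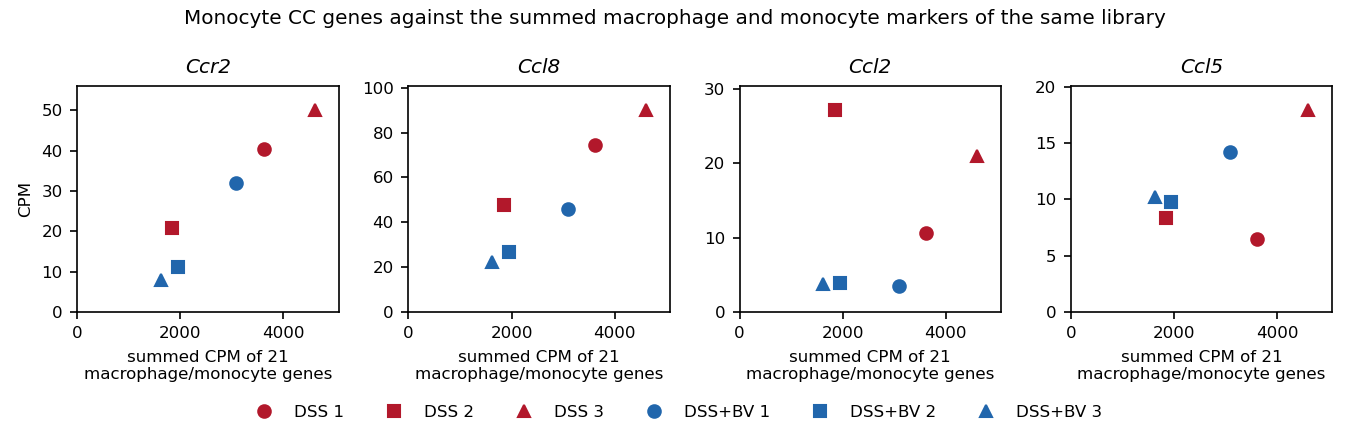
CPM of Ccr2, Ccl8, Ccl2 and Ccl5 against the summed CPM of the 21 macrophage and monocyte markers, 1 point a library and 1 panel a gene, on linear axes from 0. Ccl2 in DSS 2 is the highest of all libraries although its marker sum (1846) is the lowest of the DSS group.

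Markers of other cell types that make or answer to these chemokines also differed in level. The 8 fibroblast markers summed to between 3992 and 4242 CPM with DSS alone and between 1468 and 2127 CPM with *B. vulgatus*, without overlap, and all 8 had log2 fold changes below 0 (median −0.90, 0 called). Col3a1, a fibrillar collagen and the most abundant of them, had 1862 ± 335 and 542 ± 119 CPM (SD, n = 3). The 6 endothelial markers summed to 303 to 383 and to 201 to 274 CPM, also without overlap (median −0.55, 0 called), with Pecam1 the most abundant. The neutrophil markers summed to 235 to 1101 and to 35.3 to 334 CPM, overlapping sums led by Ly6g, with −3.11 as their median log2 fold change. Ly6g alone measured 485, 76.1 and 854 CPM in the DSS libraries and 303, 215 and 19.1 CPM in the DSS+BV libraries. For 12 of the 14 tested markers every DSS+BV library lay below every DSS library (11.3% of tested genes), unlike the sums. Of 14 tested, S100a8, S100a9, Mmp9, Mmp8, Cxcr2 and Retnlg were called lower, 6 of the 13 genes called in all (0.0892% of tested genes). Over all genes, calls of lower level were 0 with the replicate block and 0 to 3 with any 1 library left out. In the other direction, all 12 colon epithelium markers had log2 fold changes above 0 (median 0.51, 0 called), with overlapping sums. For 5 of them every DSS+BV library lay above every DSS library (6.37% of tested genes). Muc2, the goblet cell mucin and the most abundant of the 12, had 5583 ± 4085 and 11948 ± 7611 CPM (SD, n = 3). The 8 B and plasma cell markers, led by Jchain, had a median of −0.81 and the 6 smooth muscle markers, led by Myh11, one of −0.27, with overlapping sums and 0 called. None of these lists had a marker at 0 in all libraries. The part of any of them in the values of the 9 genes was not tested.

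In the rest of the CC chemokine system, 20 of 25 listed genes were tested, 16 had a log2 fold change below 0 (median −0.57), and 0 were called. Ccl11, which attracts eosinophils and sits in the same gene row as Ccl2, had the smallest p-value of that list. It measured 39.9, 60.9 and 93.6 CPM in the DSS libraries and 23.0, 26.5 and 23.5 CPM in the DSS+BV libraries, without overlap. Its log2 fold change was −1.41 (SE 0.30), with an adjusted p-value of 0.220 by edgeR and 0.00392 by DESeq2, and up to 0.870 without DSS+BV 2. Ccl9, from the row of Ccl5 and Ccl3, had 61.8 ± 11.2 and 36.8 ± 4.47 CPM (SD, n = 3 each), again without overlap (log2 fold change −0.75, edgeR adjusted p-value 0.245). Ccl11 and Ccl9 were the 2 of the 20 tested genes with every DSS+BV library below every DSS library, close to the share of all tested genes (11.3%). DESeq2 gave Ccl9 an adjusted p-value of 0.0307, but its log2 fold change of −0.74 was too small for a call. Ackr1, an atypical receptor that binds chemokines without signalling through G proteins, had a log2 fold change of −1.03 (edgeR adjusted p-value 0.382). Ccl25, which draws lymphocytes to the gut, had one of 1.199 (edgeR adjusted p-value 0.388). Ccl6, the most abundant chemokine of the list and named after its values were seen, had 335 ± 62.2 and 345 ± 131 CPM (SD, n = 3 each). Its row neighbours Ccl9 and Ccl3 had lower means in the DSS+BV group, whereas the means of Ccl6 were close.

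Among 14 genes for monocyte recruitment and survival, 13 were tested, 12 had a log2 fold change below 0 (median −0.82) and 0 were called. The integrin chain Itgam, which monocytes and neutrophils use to adhere, measured 73.2, 53.8 and 95.2 CPM in the DSS libraries and 48.2, 22.9 and 18.5 CPM in the DSS+BV libraries (log2 fold change −1.31, SE 0.40, edgeR adjusted p-value 0.329). Il34, a ligand of the macrophage growth factor receptor, had −0.96, the GM-CSF receptor chain Csf2ra −0.58 and the adhesion molecule Icam1 −0.93 on the log2 scale, with edgeR adjusted p-values of 0.388, 0.388 and 0.394. Itgam and Csf2ra were the 2 of the 13 tested genes in which every DSS+BV library lay below every DSS library, beside 11.3% of all tested genes.

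Over the 6 libraries, the log2 CPM of Ccr2 ran closest to that of Ccl8 among the 9 genes (Pearson r = 0.97), and Ccl2 ran closest to Ccl4 (r = 0.86). Ccl5 and Ccl2 had r = −0.05. Over all tested genes, Ccl2 was most like Pcdh19 (r = 0.995), Slc4a1 (0.994), Prickle2 (0.992), Arxes2 (0.991) and Itga2b (0.988), and Ccr2 most like S1pr4 and Sh3bp5 (both 0.998), Smc5 (0.997), Csf2rb2 (0.996) and Dapp1 (0.995). Correlations of this size were common, with 346 genes over 0.9 for Ccl2 and 903 for Ccr2. They are descriptions over 6 points that share the group difference, in values already scaled for library size.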

How the data were processed

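Colon RNA was sequenced in 3 DSS and 3 DSS+BV libraries, and libraries were grouped by the labels, which give no batch. The authors deposited expected counts for each gene, which were not scaled. The submitters' processing notes name HISAT2 2.1.0, Bowtie2 2.2.5, RSEM 1.2.8 and GRCm38.p6. These were rounded to integers, genes were filtered with filterByExpr (minimum count 10, minimum total 15), and libraries were scaled with TMM factors. The main test was edgeR's quasi-likelihood test (edgeR 4.0.16, R 4.3.3), and p-values of 14579 genes were adjusted by Benjamini-Hochberg. The common biological coefficient of variation was 32.1%. The study used DESeq2, which served here (1.42.0) as an alternative beside limma-voom (limma 3.58.1), other scalings and filters, a robust fit, a replicate block and each library left out. The edgeR, DESeq2 and limma-voom fits were checked on simulated counts. Low-count genes have the widest error, and p-values cover the spread between these libraries.

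The 9 genes and all lists were chosen with earlier results of these data known. Named genes are the 9, the 5 most correlated with Ccl2 and with Ccr2, and the called genes or otherwise the 4 with the smallest p-value of the other CC and recruitment lists. Marker lists are given by their summed CPM and most abundant gene, and for neutrophils and macrophages also by that rule. Gene positions, promoters and transcript lengths came from RefSeq and GENCODE M21. Correlations used log2 CPM with a prior count of 2. Of the 20 tested genes of the other CC chemokine system, 1 is counted but its values are not reported here. Plots used matplotlib 3.10.9 (Python 3.11.15).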

Additional observations from a re-analysis of the deposited data

How the results depend on the processing

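Of the choices tried, DESeq2 in place of edgeR moved the number of calls most. Over all genes, 13 were called lower and 0 higher with edgeR, and 10 and 0 with limma-voom, beside 282 and 41 with DESeq2. DESeq2 also called 1 of the 9 genes lower (Ccl2) and 1 of the other CC chemokine system (Ccl11), where edgeR called 0. With 1 library left out, edgeR called 0 to 3 genes lower and 0 to 4 higher, and between 2 and 5 of the 9 genes were lower at an unadjusted p-value under 0.05. The median log2 fold change then lay between −1.22 and −0.23 for the other CC chemokine system and between −3.91 and −0.15 for the B and plasma cell markers, both lowest without DSS+BV 1, and that of the T and NK cell markers between −0.37 and 0.27.

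The log2 fold change of Ccl12 was −0.0081 with limma-voom and between −0.56 and 0.54 with 1 library left out, that of Ccl5 between −0.20 and 0.63, and the log2 difference of Ccr1 to Ccr2 between −0.12 and 0.43. That of Ccl2 to Ccr2 lay between −1.49 and −0.33. The log2 difference of Ccl8 to the macrophage markers was −0.64, and −0.37 without Plac8. The other 7 genes kept a log2 fold change below 0 under every alternative that tested them, whereas Ccl3 was not tested with CPM over 1 required in 3 libraries. The cause of these shifts was not tested.

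Whether replicate numbers pair the libraries was not settled: deviations from the group means correlated at 0.267, 0.255 and −0.296 for numbers 1, 2 and 3. Libraries with different numbers were not compared in this way. With the replicate block, 0 of all genes were called lower and 0 of the 9, and Ccl2 had an adjusted p-value of 0.227 by edgeR. Counts of 6 to 57 for Ccl3 and Ccl4 limit what can be said of them.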
